A study of Homo sapiens with 20 samples.

Results

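The genes described here are 10 immediate early genes, FOS, FOSB, JUN, JUNB, ATF3, EGR1, KLF6, MYC, IER2 and BTG2. They were chosen by name, and each was found by its Ensembl gene identifier. They are 10 of 60623 identifiers in the tables of pancreatic progenitors (PPs) and of 60624 in the tables of human islet-like organoids (hILOs). All 10 passed the filter on low values in PPs, which asked for 1 CPM or more on average over 16 libraries, and in hILOs all but FOSB, 9 genes, averaged 1 TPM or more over 4 libraries. CPM is the reads of a gene scaled to the library's total, and TPM is scaled by transcript length as well.

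Immediate early genes are switched on within minutes of a growth factor, stress or culture signal, without new protein synthesis, by factors such as SRF with its ELK partners and CREB that are already bound near their start sites. Their mRNAs are short-lived, in many cases through AU-rich stretches in the 3′ untranslated region (UTR), so that a burst of transcription ends soon after the signal does. Most encode transcription factors that carry the signal to later genes, and FOS and JUN proteins pair into the AP-1 complex.

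The cells were made from MEL1, a human embryonic stem cell line that carries GFP at the insulin gene, either unedited (WT) or with ALKBH5 knocked out by CRISPR-Cpf1 (A5-KO). ALKBH5 removes the m6A methyl mark from mRNA. PPs of each genotype received actinomycin D (Act D), which blocks transcription, at 1 µg/ml, and were collected after 0, 1, 2 or 3 h, with 2 libraries for each genotype and time, and hILOs of each genotype, which were not given Act D, gave 2 libraries each. The labels give 1 knockout line and name no clone. The study calls the 2 PP libraries of a group biological replicates, and the labels do not say whether hILO libraries came from separate cultures. P-values measure the spread between the 2 libraries of a group, pooled over all groups of a fit and drawn towards that of genes at a like level. In hILOs this spread may be technical. In bulk RNA, fewer cells of a type and less RNA per cell cannot be told apart, and CPM is a share of each library, so that a change is relative to all mRNA left in the cells.

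Before Act D none of the 10 genes passed the test for a difference between WT and A5-KO PPs. Within 1 h of Act D, 9 of 10 fell in WT and the same number in A5-KO PPs, where 15.3% and 16.7% of tested genes did, JUNB being the exception in each, and MYC fell most, to 9.72% of its 0 h mean in WT and 10.7% in A5-KO PPs. From 1 to 3 h the genotypes parted. In WT the levels stayed or lay higher, with no member past the test, while in A5-KO PPs FOS, JUNB, IER2, BTG2 and MYC fell further, as did 15.5% of tested genes. At 3 h 9 of 10 were lower in A5-KO than in WT PPs, where 17.7% of genes were, and the 9 became as few as 5 when 1 library was left out, or with no filter on low values. The WT course after 1 h was known when the genes were chosen, so the count at 3 h is not independent of that choice. Nor is the WT count for the first hour, which shares the 1 h libraries with that course. In hILOs FOS, JUN and MYC were lower in A5-KO, where 4.09% of genes were, and none of the 3 was called when any 1 library was left out or with no filter.

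Promoter stretches of FOS, FOSB and EGR1 are shown because they hold the elements best known from immediate early genes. RefSeq's table (GRCh38.p14) held the 250 bases before the start of 9 members. TGACG, the core of the CREB site, was present on either strand in 7 of 9, against 21.7% of 27305 promoters, and TATAAA, the TATA box, in FOS, FOSB and JUNB, against 11.1%. Within these 250 bases the CArG box, bound by SRF, was found in EGR1 alone of the 9, at 2 places, against 1.14% of all promoters. Bases farther upstream were not searched, so a box there would be missed in any member. The full palindrome TGACGTCA was in 0 of 9 (1.77% of all), TGANTCA in 0 of 9 (6.60%) and GGGCGG in 7 of 9 (42.3%), each searched on both strands. In TGANTCA, a loose form of the AP-1 motif, N stands for any base. TGACG lies within TGACGTCA. A match is a string of letters, and binding was not measured. Capitals mark TGACG or its reverse complement, TATAAA and the CArG boxes, and each line runs 5′ to 3′ along the gene.
FOS, chr14:75278758-75278807, plus strand, from 70 to 21 bases before the start: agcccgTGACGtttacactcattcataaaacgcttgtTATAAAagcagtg
FOSB, chr19:45467926-45467975, plus strand, from 70 to 21 bases before the start: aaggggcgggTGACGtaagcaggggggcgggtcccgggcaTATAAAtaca
EGR1, chr5:138465339-138465418, plus strand, from 140 to 61 bases before the start: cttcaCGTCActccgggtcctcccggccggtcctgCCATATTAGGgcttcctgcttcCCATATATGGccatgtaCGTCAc

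The AU-rich element is shown for FOS because FOS alone of the 10 has the nonamer TTATTTATT in its annotated 3′ UTR. The 29 bases around it, with the nonamer in capitals, are at chr14:75282060-75282088 on the plus strand (GRCh38).
FOS 3′ UTR site: tgtttttaatTTATTTATTaagatggatt
The nonamer was in the 3′ UTR of 1189 of 12196 tested genes (9.75%). Of these genes 24.8% were called lower after 1 h of Act D in WT PPs, against 15.1% of the 11007 without it, and 31.0% against 16.1% in A5-KO PPs. These shares are descriptions over genes, which differ in UTR length and level too. The pentamer ATTTA was counted 5 times in the 3′ UTR of FOS, 6 times in MYC and KLF6, 3 times in FOSB, JUN and ATF3, 2 times in JUNB and BTG2, once in EGR1 and not in IER2. FOS had the highest density, 6.20 per kb, against a median of 1.75 per kb over 12206 tested genes. IER2 fell within 1 h without an ATTTA in its annotated 3′ UTR, and JUNB, with 4.00 per kb, was not called. The part of these motifs in any member's fall was not tested.

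PP libraries held 30516384 to 35206514 reads, recovered from the CPM values. ALKBH5 was at 149 and 172 CPM in WT and 19.1 and 18.8 in A5-KO PPs at 0 h (log2 difference -3.01, adjusted p = 3.0e-08, limma), and at 78.8 and 81.9 against 4.16 and 3.42 TPM in hILOs. All 7 progenitor markers reported, PDX1, SOX9, NKX6-1, ONECUT1, FOXA2, GATA4 and GATA6, reached 1 CPM in each PP group, and all 6 islet markers reached 1 TPM in each hILO group, while the pluripotency genes POU5F1 and NANOG stayed under 1 in every library. LIN28A, the third gene of the pluripotency list, did not: the sum over the list was 115 to 119 CPM in WT and 229.8 to 246 in A5-KO PPs at 0 h, and LIN28A was higher in A5-KO (1.01, adjusted p = 9.6e-06, limma). A5-KO PPs also had more hepatic mRNA at 0 h, a sum over ALB, AFP, APOA1 and TTR of 1532 to 1555 CPM against 690.1 to 699.0 in WT, and more mesenchymal mRNA, a sum over 5 genes of 196 to 200.4 against 111 to 118 CPM. The 2 libraries of WT PPs at 2 h stood apart from each other most, with a median absolute log2 difference of 0.22 over genes against 0.09 to 0.17 in the other PP groups. All 10 members were higher in replicate 2 than in replicate 1, from 1.19 times for JUNB to 3.21 times for MYC. The share of all genes higher in replicate 2 was not counted. In replicate 1, 51.6% of tested genes were below both WT libraries at 1 h, and in replicate 2, 51.5% were above both. Results that share an estimate of the spread with these 2 libraries at 2 h are therefore also given without both of them.

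The members have few exons. In the GENCODE annotation of GRCh38, the build that the study's methods name, JUN (chr1:58776845-58784048, minus strand) and JUNB (chr19:12791486-12793315, plus) have 1 exon, and EGR1 (chr5:138465479-138469303, plus), IER2 (chr19:13150411-13154911, plus) and BTG2 (chr1:203305491-203309602, plus) have 2. MYC (chr8:127735434-127742951, plus) has 3 exons, and FOS (chr14:75278826-75282230, plus), FOSB (chr19:45467995-45475179, plus), KLF6 (chr10:3775996-3785281, minus) and ATF3 (chr1:212565334-212620777, plus) have 4. The median over the 12206 tested genes with an annotated 3′ UTR was 9. Exons of 3 members share bases with genes on the opposite strand: JUNB shares 259 of 1830 exon bases with HOOK2, MYC 194 of 6109 with CASC11, and IER2 662 and 946 of 3079 with 2 long noncoding RNAs. Whether strand was used in counting is not given in the sources used here, so reads in those bases cannot be assigned to a strand.

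The FOS and JUN families come first. FOS, which forms AP-1 only with a JUN partner, was at 40.9 and 35.4 CPM before Act D, 12.7 and 12.5 after 1 h, 10.8 and 16.3 after 2 h, and 15.3 and 15.6 after 3 h in the 2 WT libraries in turn. In A5-KO PPs FOS was at 36.3 and 29.1 CPM before Act D, 9.41 and 13.1 after 1 h, 6.39 and 6.82 after 2 h, and 4.66 and 4.71 after 3 h. The 1 h libraries of the genotypes overlapped, and at 2 and 3 h every A5-KO library was below every WT library.

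FOSB, a FOS paralog and the lowest of the 10, was at 5.74 and 5.298 CPM before Act D, 1.001 and 1.17 after 1 h, 1.44 and 2.05 after 2 h, and 1.73 and 1.96 after 3 h in WT PPs. The A5-KO libraries gave 1.95 and 3.28 CPM before Act D, 1.73 and 0.467 after 1 h, 1.28 and 1.34 after 2 h, and 1.62 and 1.23 after 3 h. At 0 h both A5-KO libraries were below both WT libraries, and at 3 h they were again, by a smaller margin.

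JUN, the defining JUN subunit, was at 53.9 and 47.7 CPM before Act D, 6.35 and 8.75 after 1 h, 5.65 and 14.4 after 2 h, and 12.5 and 13.8 after 3 h in WT PPs. The A5-KO libraries gave 33.6 and 35.2 CPM before Act D, 9.55 and 9.09 after 1 h, 4.203 and 5.14 after 2 h, and 7.47 and 5.501 after 3 h. The A5-KO libraries were below those of WT at 0 h, above them at 1 h, and below them again at 2 and 3 h.

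JUNB, which competes with JUN for partners, was at 9.33 and 8.49 CPM before Act D, 6.23 and 6.28 after 1 h, 4.33 and 5.17 after 2 h, and 4.83 and 8.78 after 3 h in WT PPs. The A5-KO libraries gave 6.61 and 10.4 CPM before Act D, 5.01 and 8.44 after 1 h, 3.91 and 3.74 after 2 h, and 3.27 and 3.19 after 3 h. At 0 and 1 h the A5-KO libraries lay on both sides of the WT libraries, and at 2 and 3 h they were below them.

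ATF3, a stress-induced bZIP factor that represses as a homodimer, was at 19.95 and 16.8 CPM before Act D, 2.77 and 3.55 after 1 h, 3.08 and 6.77 after 2 h, and 4.39 and 6.19 after 3 h in WT PPs. With ALKBH5 knocked out, ATF3 was at 15.4 and 11.5 CPM before Act D, 3.39 and 3.48 after 1 h, 2.57 and 3.703 after 2 h, and 2.78 and 1.68 after 3 h. The groups overlapped at 2 h and not at 3 h.

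The other DNA-binding members are EGR1, KLF6 and MYC. EGR1, a zinc finger factor, was at 28.4 and 21.7 CPM before Act D, 3.69 and 2.73 after 1 h, 3.08 and 5.49 after 2 h, and 5.52 and 6.76 after 3 h in WT PPs. With ALKBH5 knocked out, EGR1 was at 22.8 and 21.1 CPM before Act D, 2.91 and 2.396 after 1 h, 1.72 and 1.77 after 2 h, and 2.53 and 2.53 after 3 h. Its WT libraries at 3 h were far above those of A5-KO, while at 0 h the groups overlapped.

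KLF6, a GC-box binding zinc finger factor, was at 69.7 and 57.9 CPM before Act D, 16.04 and 17.5 after 1 h, 12.6 and 22.9 after 2 h, and 22.6 and 27.2 after 3 h in WT PPs. With ALKBH5 knocked out, KLF6 was at 67.9 and 51.6 CPM before Act D, 18.5 and 16.4 after 1 h, 10.7 and 10.1 after 2 h, and 15.7 and 12.4 after 3 h. In A5-KO both 3 h libraries were above both 2 h libraries and below both 1 h libraries, and in WT they were above both 1 h libraries.

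MYC, which binds E-boxes with MAX and drives growth genes, was at 289 and 184 CPM before Act D, 21.8 and 24.2 after 1 h, 10.6 and 33.98 after 2 h, and 37.6 and 47.1 after 3 h in WT PPs. The knockout libraries held 302 and 215 CPM before Act D, 26.98 and 28.2 after 1 h, 8.26 and 6.46 after 2 h, and 7.44 and 4.33 after 3 h. No other member spanned so wide a range: 2.28% of the 0 h mean was left at 3 h in A5-KO and 17.9% in WT PPs.

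IER2 and BTG2 act as regulators without a classical DNA-binding domain. IER2, a small nuclear protein, was at 29.2 and 25.4 CPM before Act D, 7.43 and 8.002 after 1 h, 6.68 and 13.04 after 2 h, and 9.696 and 12.3 after 3 h in WT PPs. The knockout libraries held 24.1 and 23.6 CPM before Act D, 8.83 and 9.67 after 1 h, 5.95 and 5.18 after 2 h, and 5.54 and 4.58 after 3 h. Its genotypes did not overlap at any of the 4 times: A5-KO was below WT at 0, 2 and 3 h and above it at 1 h, and replicate 1 of WT at 2 h lay just above the A5-KO libraries.

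BTG2, an antiproliferative cofactor that recruits the CCR4-NOT deadenylase, was at 128 and 106 CPM before Act D, 53.5 and 62.5 after 1 h, 37.5 and 70.96 after 2 h, and 49.8 and 65.5 after 3 h in WT PPs. The knockout libraries held 117 and 93.95 CPM before Act D, 58.9 and 59.6 after 1 h, 33.2 and 25.99 after 2 h, and 18.1 and 15.1 after 3 h. The WT level held at about the 1 h mean, 49.4% of 0 h at 3 h, and the A5-KO level went on down to 15.7%.

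**Figure D1:**
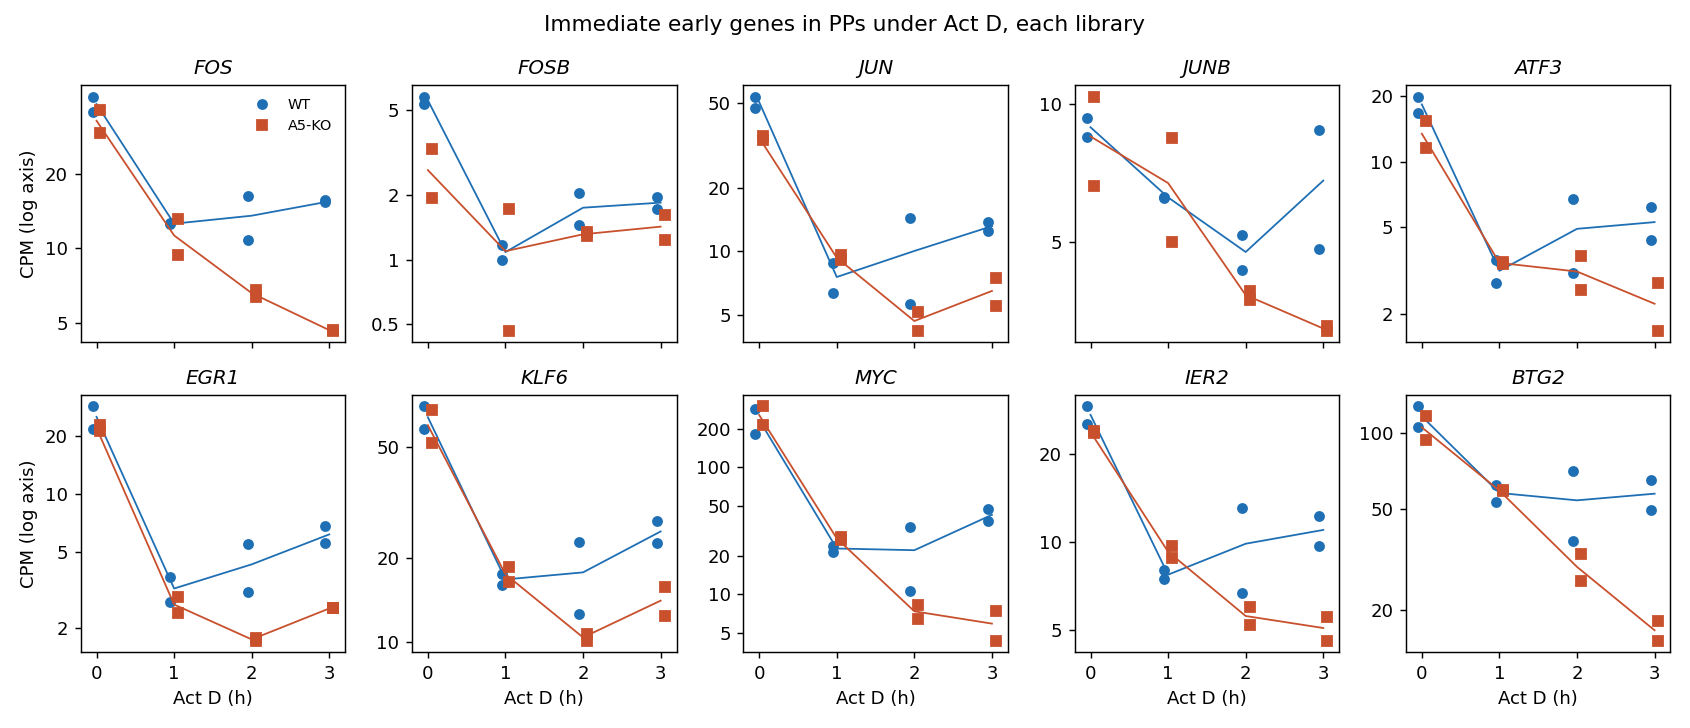
CPM (log axis) of the 10 genes against hours of Act D in PPs, with a point for each library (WT blue, A5-KO red) and lines through the means of 2 libraries. The points of both genotypes lay close at 0 and 1 h for most genes, and at 3 h the A5-KO points were below the WT points for all 10. The share of all tested genes with this order at 3 h was not counted.

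Levels of different genes were compared per kilobase of the canonical transcript. In WT PPs at 0 h MYC was highest, at 63.6 CPM per kb, then BTG2 at 42.7, FOS at 18.1, JUN at 15.6, KLF6 at 13.9, IER2 at 12.9, ATF3 at 9.47, EGR1 at 7.99, JUNB at 4.87 and FOSB at 1.46. JUN and KLF6, KLF6 and IER2, and ATF3 and EGR1 overlapped between libraries, and the other neighbours in this order did not. In WT hILOs, on the TPM scale, BTG2 was highest at 51.6 and KLF6 came next at 48.2, JUN, MYC and JUNB lay between 42.5 and 39.6, and EGR1 (1.86) and FOSB (0.34) were the lowest. The orders come from separately made tables and were not tested against each other.

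The first comparison asked how far each mRNA fell in the first hour without transcription. Genes were tested with limma on log2(CPM + 1), all 16 PP libraries in 1 fit, and a call needed an adjusted p (Benjamini-Hochberg) under 0.05 and a change over 1.5-fold. In WT PPs 9 of 10 members were called lower, where 15.3% of the 13620 tested genes were, and 0 were called higher, where 0.206% were. These 1 h libraries also enter the WT course after 1 h, which was known when the genes were chosen. The WT count is therefore not independent of that choice. The steepest falls were in MYC (log2 difference -3.27 ± 0.36 SE, adjusted p = 1.7e-05), EGR1 (-2.63 ± 0.21, adjusted p = 2.9e-06) and JUN (-2.61 ± 0.27, adjusted p = 1.4e-05). ATF3 (-2.22), KLF6 (-1.86), IER2 (-1.70), FOSB (-1.64), FOS (-1.52) and BTG2 (-0.99) fell too, and JUNB differed by -0.45 ± 0.25 (adjusted p = 0.23). The median of the 10 was -1.78, against -0.12 over all tested genes. For the 7 progenitor markers it was -1.77, with 6 of them called lower. In A5-KO PPs 9 of 10 were called lower as well, where 16.7% of genes were (1.06% higher), with MYC at -3.16 ± 0.36, EGR1 at -2.65 ± 0.21 and JUN at -1.78 ± 0.27. Of all genes called over this hour in WT, 1.33% were higher, which became 6.19% under median-of-ratios and 24.9% under quantile scaling, and in A5-KO PPs 5.94% became 24.2% and 42.2%.

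Of the 9 calls, BTG2 missed the threshold in WT without replicate 1 at 0 h (adjusted p = 0.063) or replicate 1 at 1 h (0.051), and in A5-KO PPs without replicate 1 at 0 h (0.13) or replicate 2 at 1 h (0.058). FOSB missed it in A5-KO PPs without replicate 2 at 0 h (adjusted p = 0.18) or replicate 2 at 1 h (0.32). With edgeR on the recovered reads FOSB missed it there too (adjusted p = 0.055), which left 8 of 10, and with no filter 7 of 10 were called.

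The falls of the first hour were set against each other between genotypes with an interaction term. It contains the WT libraries at 1 h, so it is not independent of the choice of genes either. No member passed in limma, edgeR or DESeq2, and 2 had an unadjusted p below 0.05, FOSB (0.82 ± 0.37, adjusted p = 0.53) and JUN (0.83 ± 0.39, adjusted p = 0.55), each a smaller fall in A5-KO PPs. Over all genes 0.22% were called with the higher change in A5-KO and 0.0% with the lower. For FOS the 95% interval of the difference was -0.49 to 0.61, for EGR1 -0.67 to 0.62 and for MYC -0.97 to 1.197 on the log2 scale.

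After 1 h the courses of WT and A5-KO PPs separated. In WT, both 3 h libraries were above both 1 h libraries for 8 of 10 members, all but JUNB and BTG2, where 24.7% of tested genes had this order. That course was known from earlier results of these data when the genes were chosen, so it is a description. In the limma fit 0 of 10 were called higher from 1 to 3 h, where 0.485% of genes were, and 0 lower, where 0.11% were. An unadjusted p below 0.05 was found for 5 members: EGR1 (0.77 ± 0.21, adjusted p = 0.16), JUN (0.74 ± 0.27, adjusted p = 0.42), MYC (0.85 ± 0.36, adjusted p = 0.57), ATF3 (0.59) and KLF6 (0.54). edgeR on the recovered reads called 0, and DESeq2 called 1, EGR1 (0.88, adjusted p = 0.026). Without both WT libraries at 2 h, or without either of them, EGR1 and JUN were called higher (adjusted p = 0.040 and 0.028 without both), and with the 2 WT groups alone in the fit MYC was (adjusted p = 0.046). At 2 h replicate 1 of WT was below both 1 h libraries for 7 of 10 members, where 51.6% of tested genes were. Replicate 2 was above both for 9 of 10, where 51.5% of tested genes were.

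In A5-KO PPs 5 of 10 members were called lower from 1 to 3 h, where 15.5% of genes were, and 0 were called higher, where 0.837% were. Of the genes called, 5.11% were higher, which became 15.1% under median-of-ratios and 34.7% under quantile scaling. MYC (-2.09 ± 0.36, adjusted p = 0.00062), BTG2 (-1.78 ± 0.22, adjusted p = 7.9e-05) and FOS (-1.09 ± 0.18, adjusted p = 0.00052) fell most. JUNB (-0.83) and IER2 (-0.76) fell by less. FOSB (0.27), EGR1 (-0.05), KLF6 (-0.30), JUN (-0.48) and ATF3 (-0.48) did not pass, and EGR1 changed sign under other scalings. Quantile scaling and the fit with no filter on low values each left 3 of the 5 calls. Both 3 h libraries were below both 1 h libraries for 8 of 10, where 45.7% of genes were. IER2 missed the threshold without replicate 2 at 1 h or replicate 2 at 3 h (adjusted p = 0.097 and 0.13), and JUNB without replicate 2 at 1 h, replicate 1 at 3 h or replicate 2 at 3 h (0.25, 0.081 and 0.11).

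**Figure D2:**
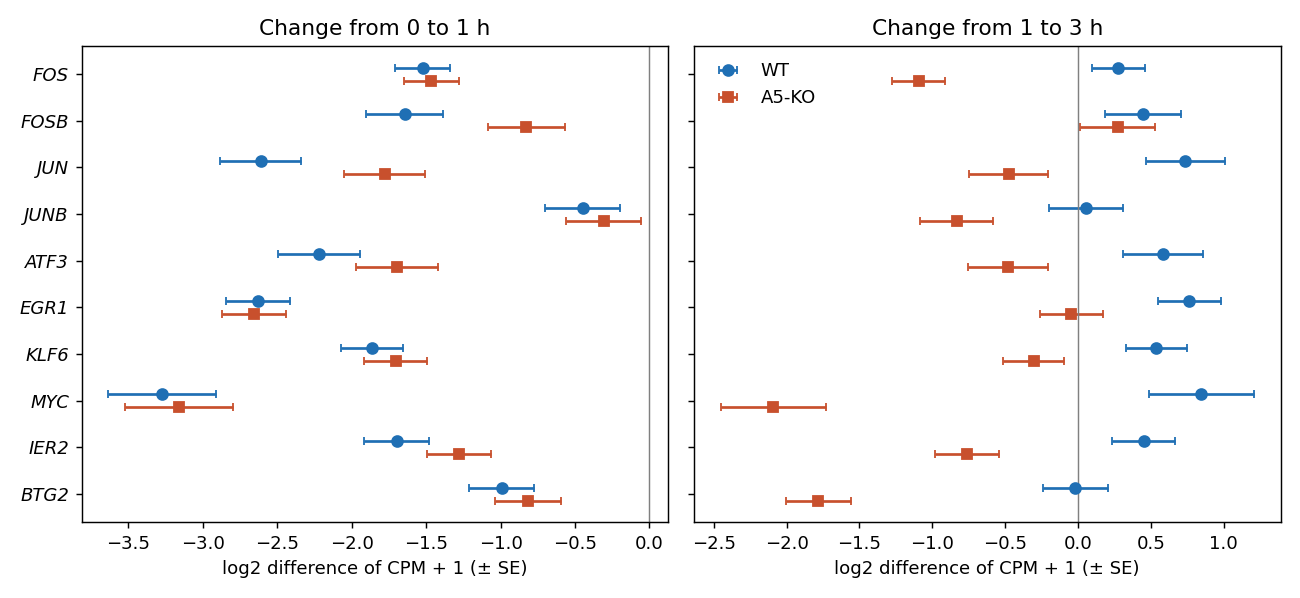
Log2 difference of CPM + 1 (± SE from the limma fit) for the 10 genes from 0 to 1 h (left) and from 1 to 3 h (right), WT in blue and A5-KO in red. Over the first hour the values of both genotypes were below 0 for every gene (JUNB in A5-KO PPs was at 0.0026 under quantile scaling), and from 1 to 3 h those of WT lay from -0.02 to 0.85 and those of A5-KO from -2.09 to 0.27.

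The interaction term for 1 to 3 h set the changes of the genotypes against each other. It contains the WT change that was known when the genes were chosen, so it is not independent of that choice. The change was lower in A5-KO for 5 of 10 members, where 15.4% of genes were called (1.22% with the higher change). Of the genes called, 7.33% had the higher change, against 22.1% under median-of-ratios and 38.1% under quantile scaling. The members called were MYC (-2.94 ± 0.51, adjusted p = 0.0017), BTG2 (-1.76 ± 0.31, adjusted p = 0.0018), FOS (-1.37 ± 0.26, adjusted p = 0.0026), IER2 (-1.21 ± 0.31, adjusted p = 0.012) and JUN (-1.21 ± 0.39, adjusted p = 0.037). KLF6, ATF3, EGR1 and JUNB had differences from -1.07 to -0.81 with adjusted p from 0.057 to 0.092, and FOSB was at -0.17 (adjusted p = 0.79). The median of the 10 was -1.14, against -0.17 over all genes. The 7 progenitor markers had a median of -1.97 in this term, and 6 of them were called lower. MYC, BTG2 and FOS stayed called whichever library was left out. IER2 missed the threshold without replicate 1 of WT at 1 h, replicate 2 of WT at 3 h or replicate 2 of A5-KO at 3 h (adjusted p from 0.052 to 0.061). JUN missed it when any 1 of 8 libraries was left out: replicate 1 of WT at 1 h, either of WT at 3 h, either of A5-KO at 0 h, either of A5-KO at 1 h, or replicate 2 of A5-KO at 3 h (adjusted p from 0.051 to 0.15). Without both WT libraries at 2 h 8 of 10 were called, with EGR1, ATF3 and KLF6 added.

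**Figure D3:**
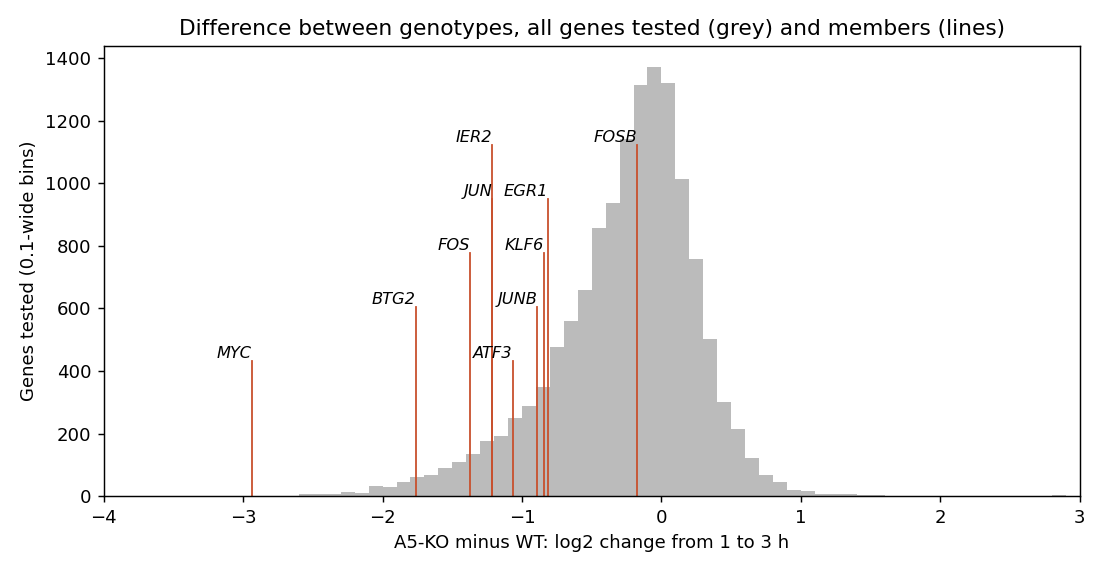
Number of tested genes (0.1-wide bins, grey) by the difference between genotypes in the log2 change from 1 to 3 h, with a red line at the value of each of the 10 genes, whose heights only separate the names. MYC (-2.94), BTG2 (-1.76) and FOS (-1.37) lay below the 5th percentile of all genes (-1.27), and FOSB (-0.17) lay at the median.

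The genotypes were then compared at the same time point. At 0 h 0 of 10 members were called lower in A5-KO, where 1.1% of genes were, and 0 higher, where 1.43% were, by limma, edgeR or DESeq2. FOSB alone had an unadjusted p below 0.05 (-0.88 ± 0.26, adjusted p = 0.070), and it was called without either WT library at 2 h (adjusted p = 0.049) or either A5-KO library at 1 h (0.026), and under median-of-ratios scaling. The 95% interval of the difference was -0.61 to 0.17 for FOS, -0.63 to 0.28 for EGR1, -1.12 to 0.03 for JUN and -0.62 to 0.91 for MYC. At 2 h A5-KO was below WT in every pair of libraries for 9 of 10 members, all but ATF3, where 37.5% of genes had this order. With 2 libraries against 2, an exact two-sided permutation test cannot give a p below 0.33.

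At 3 h 9 of 10 members were lower in A5-KO than in WT PPs, all but FOSB, where 17.7% of genes were called lower (1.15% higher). The WT course after 1 h was known when the genes were chosen. The comparisons at 2 and 3 h are therefore not independent of that choice. Among the genes called at 3 h, 6.11% were higher, which became 16.7% under median-of-ratios and 39.1% under quantile scaling. MYC differed most (-2.68 ± 0.36, adjusted p = 7e-05), then BTG2 (-1.73 ± 0.22, adjusted p = 5.1e-05) and FOS (-1.53 ± 0.18, adjusted p = 3.2e-05). EGR1 (-1.01), IER2 (-0.98), ATF3 (-0.97), JUN (-0.93), JUNB (-0.84) and KLF6 (-0.78) were lower too, and FOSB was at -0.23 (adjusted p = 0.53). With no filter on low values 5 of 10 were called, and under quantile scaling 6. JUN, ATF3 and KLF6 missed the threshold without replicate 2 of WT at 3 h (adjusted p = 0.091, 0.12 and 0.087) or replicate 2 of A5-KO at 3 h (0.15, 0.15 and 0.11), and JUNB without either of these (0.25 and 0.094) or replicate 1 of A5-KO at 3 h (0.071). The 7 progenitor markers were all lower in A5-KO at this time, with a summed level of 87.4 to 99.3 CPM against 376 to 389 in WT. At 0 h these sums overlapped, at 909 to 1034 CPM in A5-KO and 967 to 1242 in WT, and ONECUT1 alone was called lower. At 3 h the hepatic sum was 1799 to 1908 against 1074 to 1226, and the mesenchymal sum was 288 to 299 against 168 to 173. LIN28A, of the markers too, was higher by 0.63 on the log2 scale. Their part in the members' difference was not tested.

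The wider network was counted by lists chosen with earlier results of these data known. The counts below are to be read against all tested genes, of which 15.3% fell within 1 h in WT and 16.7% in A5-KO PPs, 15.5% fell from 1 to 3 h in A5-KO PPs, 17.7% were lower in A5-KO at 3 h, and 15.4% were lower in the interaction for 1 to 3 h. Of 29 other immediate early genes 21 were tested. In WT PPs 20 of them fell within 1 h, led by TRIB1 (-3.17), a pseudokinase, and HES1 (-2.65), a Notch target, and 1 rose, the growth arrest gene GADD45B (1.18). In A5-KO PPs 17 fell and 1 rose over that hour, and 14 fell from 1 to 3 h, with a median of -1.13 against 0.40 in WT. At 3 h 17 of 21 were lower in A5-KO, with HES1 at -1.996 and KLF10 at -1.97, and the interaction term for 1 to 3 h was lower for 16, with KLF4 at -2.49 and ID2 at -2.35. Their medians were -1.33 for WT over the first hour and -1.55 for the interaction.

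Among 14 tested AP-1 and ATF genes outside the members, 9 fell within 1 h in WT, led by FOSL2 (-2.63) and MAFF (-1.74), and 8 in A5-KO PPs. The interaction term for 1 to 3 h was lower for 4, with FOSL2 at -2.002 and JUND at -1.65. Of 19 upstream kinases and factors, the genes whose proteins switch the members on, 7 fell within 1 h in each genotype, led in WT by ELK4 (-1.196) and MRTFA (-0.94), and 4 were lower in the interaction for 1 to 3 h, led by MAP3K1 (-1.41) and MRTFA (-1.36). The median of these 19 in the interaction was -0.16, against -0.17 over all genes.

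Of 12 genes of the MYC network 5 fell in WT within 1 h, with MYCN at -2.17 and MXD1 at -1.74, and 5 were lower in the interaction, again led by MYCN (-1.998) and MXD1 (-1.39). The other KLF genes gave 6 of 8 lower at 1 h in WT, led by KLF5 (-2.08), and 4 lower in the interaction (KLF5, -2.59). Of the 4 other BTG and TOB genes 3 were lower in each of these, led by BTG1 (-1.65 at 1 h in WT and -2.91 in the interaction).

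Genes most like 4 members were found by Pearson's r of log2(CPM + 1) over the 16 PP libraries among 8914 genes that averaged 10 CPM or more. These values describe a shared course, since all points share the Act D times. FOS was most like KAT7 (0.991), SOX9 (0.990) and PPP4R3A (0.988), EGR1 like ZNF134 (0.987), TSC22D2 (0.985) and TENT5A (0.984), JUN like POU3F2 (0.984), GRPEL1 (0.983) and TSC22D2 (0.983), and MYC like C15orf39 (0.998), MCL1 (0.996) and CHD1 (0.995). Among the 45 pairs of members r ran from 0.48 for FOSB with JUNB to 0.985 for IER2 with MYC, with a median of 0.923.

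In hILOs, where no Act D was given, FOS was at 19.2 and 21.99 TPM in WT and 10.1 and 10.9 in A5-KO. JUN was at 42.5 and 42.5 TPM in WT and 27.03 and 24.2 in A5-KO. MYC was at 38.8 and 45.4 TPM in WT and 25.7 and 23.98 in A5-KO. For these 3 genes A5-KO had 50.9% to 60.3% of the WT mean, and the groups did not overlap.

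JUNB was at 38.2 and 41.1 TPM in WT and 27.8 and 30.8 in A5-KO, and ATF3 was at 21.4 and 24.1 in WT and 20.8 and 17.1 in A5-KO. BTG2 was at 50.4 and 52.8 TPM in WT and 46.6 and 42.4 in A5-KO, and KLF6 was at 48.5 and 47.8 in WT and 43.7 and 40.9 in A5-KO. IER2 was at 14.9 and 15.3 TPM in WT and 14.5 and 11.4 in A5-KO. Each of these 5 had its A5-KO libraries below its WT libraries by a smaller margin. EGR1, at 1.53 and 2.19 TPM in WT and 1.52 and 1.58 in A5-KO, overlapped. FOSB was at 0.354 and 0.3302 TPM in WT, and in A5-KO it was listed at 0 in 1 library and at 0.129 in the other.

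Of the 9 tested members, 3 were called lower in A5-KO hILOs, where 4.09% of 17300 genes were, and 0 higher, where 2.7% were. The log2 differences on the log2(TPM + 1) scale were -0.91 ± 0.11 for FOS (adjusted p = 0.018), -0.73 ± 0.10 for MYC (adjusted p = 0.024) and -0.71 ± 0.08 for JUN (adjusted p = 0.016). JUNB, at -0.42 (adjusted p = 0.049), was below the 1.5-fold limit, and the other 5 ranged from -0.26 to -0.15. A5-KO was below WT without overlap for 8 of the 9, all but EGR1, where 37.1% of genes were. With the replicate number as a block MYC was no longer called (adjusted p = 0.056). With no filter 0 of the 3 were called. All 3 calls were lost when any 1 of the 4 libraries was left out, with adjusted p from 0.056 to 0.10, and over all genes the number called went from 1174 to between 143 and 289. Islet markers were lower in A5-KO hILOs for 4 of 6 (summed level of the 6, 26351 to 27563 against 34386 to 36702 TPM), and NEUROD1 was higher (0.75, adjusted p = 0.0028). In A5-KO hepatic markers were higher for 2 of 4 (29847 to 30189 against 17025 to 17352 TPM) and mesenchymal markers for 3 of 4 tested (40.8 to 47.3 against 6.51 to 13.7 TPM). Their part in the members' difference was not tested.

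**Figure D4:**
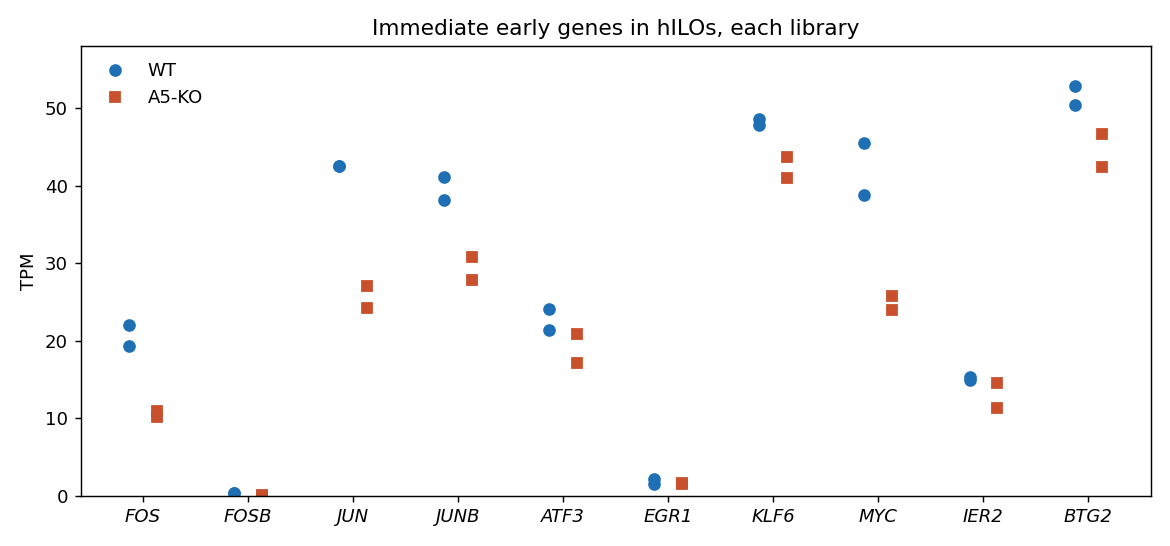
TPM (linear axis) of the 10 genes in each hILO library, WT in blue and A5-KO in red. The A5-KO points of FOS, JUN and MYC lay well below the WT points, and those of EGR1 overlapped.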

How the data were processed

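RNA-seq of 16 PP and 4 hILO libraries was used, with genotype, time and replicate taken from the labels. The authors trimmed reads with fastp and aligned them to GRCh38 with HISAT2 (2.1.0). For PPs they deposited CPM for each gene, without the ERCC spike-ins; the read counter and annotation release are not given in the sources used here. For hILOs they deposited TPM from StringTie for each gene. The authors' conversion to attomoles was not repeated. All CPM values were whole multiples of 1 read within 0.01 read, which gave the counts behind the deposited values. Depth cannot be read from TPM, and hILO values carry no counting error here.

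Symbols came from GENCODE v44 on GRCh38. Genes averaging 1 CPM (13620) or 1 TPM (17300) or more were tested with limma (3.58.1, R 4.3.3, eBayes with trend) on log2(value + 1) of the deposited values. PPs were fitted together with a mean for each of 8 groups, and hILOs alone. The pseudocount understates the change of low genes. The design named edgeR for whole counts, but the deposited unit is CPM, so count tests on the recovered reads, edgeR (4.0.16) and DESeq2 (1.42.0), are alternatives. The fit was tested on simulated data. Transcript lengths are of the canonical transcript.

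The members and the lists were chosen with earlier results of these data known. Members are named in every comparison, and other genes by list, at most 2 in each direction and comparison, those with the largest change. Other alternatives were median-of-ratios and quantile scaling, a pseudocount of 0.1, no filter on low values, a replicate block, a fit of only the groups compared, and leaving out each library. Leaving out both WT libraries at 2 h was added after seeing the data. One marker of the progenitor list is not reported here.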

Additional observations from a re-analysis of the deposited data

Results flagged for a closer look

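The change from 1 to 3 h of Act D differed between genotypes for 5 of the 10 genes by the interaction term of the limma fit, where 15.4% of all tested genes were lower in A5-KO and 1.22% higher. The 5 became 3 to 8 when 1 library was left out, and JUN was lost when any 1 of 8 libraries was left out. The term contains the WT change known when the genes were chosen. The difference, A5-KO minus WT on the log2 scale, was -2.94 for MYC, -1.76 for BTG2, -1.37 for FOS, -1.21 for JUN and -1.21 for IER2. In each of these genes both A5-KO libraries at 3 h were below both at 1 h, where 45.7% of tested genes were. In WT PPs both 3 h libraries were above both 1 h libraries for MYC, FOS, JUN and IER2, and for BTG2 they overlapped. Of all tested genes 24.7% had both 3 h libraries above both 1 h libraries in WT. The same libraries enter the interaction term, so these orders are not independent of the calls. Groups of 2 libraries are too small to look for a library that stands apart from its group.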

How the results depend on the processing

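With 2 libraries a group, the spread between them limits every test. FOSB, the lowest member, rests on 16 to 200 reads a library in PPs. The labels do not say whether a replicate number marks a shared batch of cells, and same-numbered PP libraries' deviations correlated from -0.26 to 0.18, so the replicate block is an alternative: it left 88 of 89 member values on their side of the threshold, ended the call of MYC in hILOs (adjusted p = 0.056) and took the genes called in hILOs from 1174 to 674. A pseudocount of 0.1 changed no member call. Median-of-ratios and quantile scaling moved the median of all genes by up to 0.15 and 0.22. The cause of the changes below was not tested.

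In WT from 1 to 3 h the genes called, 81, became 49 with no filter, 147 with DESeq2, 38 with only the groups compared and 134 without both WT libraries at 2 h, and the members called higher, 0, became 1 with DESeq2, 1 with only the groups compared and 2 without those libraries. In A5-KO PPs from 1 to 3 h the members called lower, 5, became 3 with quantile scaling and 3 with no filter. At 0 h between genotypes 1 member, FOSB, was called with median-of-ratios scaling, with only the groups compared and without both WT libraries at 2 h. At 3 h the 9 became 5 with no filter. For the interaction over the first hour the genes called, 30, became 18 with no filter, 87 with DESeq2, 50 with only the groups compared and 59 without both WT libraries at 2 h. For 1 to 3 h the 2264 became 1109 with no filter, and the 5 members became 3 with no filter and 8 without those libraries. In hILOs no filter gave 330 genes and 0 members.

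Direction changed only near 0 among member values: JUNB in WT from 1 to 3 h (-0.040) and in A5-KO from 0 to 1 h (0.0026) and FOSB in the interaction for 1 to 3 h (0.049) with quantile scaling, and EGR1 in A5-KO from 1 to 3 h with median-of-ratios (0.046), quantile (0.20), edgeR (0.056) and DESeq2 (0.065).

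Leaving out 1 library gave these ranges of genes called: WT 0 to 1 h 1167 to 2193, WT 1 to 3 h 36 to 134, A5-KO 0 to 1 h 1384 to 2796, A5-KO 1 to 3 h 1446 to 2327, genotypes at 0 h 156 to 429, interaction over the first hour 10 to 60, for 1 to 3 h 1242 to 2669, and hILOs 143 to 289. Members called ran from 0 to 2 in WT from 1 to 3 h, 3 to 5 in A5-KO from 1 to 3 h, 0 to 1 at 0 h, 5 to 9 at 3 h, 3 to 8 in the interaction for 1 to 3 h, and 0 to 0 in hILOs. Values that changed sign ran as follows. WT 1 to 3 h: BTG2 -0.21 to 0.18 and JUNB -0.31 to 0.43. A5-KO 0 to 1 h: JUNB -0.63 to 0.020. A5-KO 1 to 3 h: EGR1 -0.15 to 0.055 and FOSB -0.17 to 0.72. Genotypes at 0 h: BTG2 -0.30 to 0.011, EGR1 -0.36 to 0.013, JUNB -0.38 to 0.20, KLF6 -0.30 to 0.094 and MYC -0.18 to 0.47. Interaction over the first hour: EGR1 -0.21 to 0.16, FOS -0.16 to 0.28, JUNB -0.19 to 0.47, KLF6 -0.037 to 0.35 and MYC -0.21 to 0.44. Interaction for 1 to 3 h: FOSB -0.62 to 0.27. hILOs: EGR1 -0.32 to 0.014. None of these was called.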
